A study of Mus musculus with 8 samples.

Results

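The 9 genes described here encode the signalling chains of the B cell receptor, receptors that restrain it and proteins that work with it in B cells: *Cd79a*, *Cd79b*, *Ms4a1*, *Cd22*, *Cd72*, *Bank1*, *Blk*, *Pik3ap1* and *Pax5*. They were taken from a list of names, drawn up with earlier results of these data known. All 9 were measured among 18820 genes, each by 1 probe set, the group of array probes that is summarised into 1 value. RNA came from epididymal white adipose tissue, the visceral fat beside the testis, of 4 male *Sucnr1*-/- mice and 4 male WT mice, with 1 Affymetrix array per mouse. *Sucnr1* encodes the receptor for extracellular succinate. In *Sucnr1*-/- mice an IRES/lacZ/neo cassette stood in place of most of the receptor's coding exon in the germline, so the loss was not limited to adipose tissue or to a cell type. WT mice came from the same crosses of heterozygous parents, and both genotypes were on a C57BL/6 background. Both were given a semi-synthetic low-fat diet (LFD) for 16 weeks, starting at 8 to 10 weeks of age, and were 24 to 26 weeks old when killed. These ages are the labels', and the study's methods for the feeding groups as a whole give a wider range of starting ages. Values are log2 expression after robust multi-array average (RMA), on which 1 unit is a doubling, and differences are *Sucnr1*-/- minus WT.

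B cells recognise antigen with a membrane antibody that has almost no cytoplasmic part and signals through the paired chains CD79A and CD79B, whose tyrosine motifs recruit the kinases of the cascade. CD22, which binds sialic acids, and CD72, a lectin-like receptor for the semaphorin SEMA4D, carry inhibitory tyrosine motifs that bring the phosphatase SHP-1 to the receptor and dampen it. Visceral fat holds resident B cells, some of them in small lymphoid clusters.

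The promoters of a signalling chain and of the inhibitory receptors are shown for the letters that B lineage and ETS factors are known to bind. Of the 9 genes, 6 matched the RefSeq promoter windows of GRCm38.p6, which run from 250 bases before a gene's start site to 50 after it. Each is written 5′ to 3′ on the gene's own strand, and capitals mark the motif letters, which were searched on both strands. The windows lie at chr7:24897247-24897546 on the plus strand for *Cd79a*, at chr7:30878979-30879278 on the minus strand for *Cd22* and at chr4:43454577-43454876 on the minus strand for *Cd72*.
Cd79a: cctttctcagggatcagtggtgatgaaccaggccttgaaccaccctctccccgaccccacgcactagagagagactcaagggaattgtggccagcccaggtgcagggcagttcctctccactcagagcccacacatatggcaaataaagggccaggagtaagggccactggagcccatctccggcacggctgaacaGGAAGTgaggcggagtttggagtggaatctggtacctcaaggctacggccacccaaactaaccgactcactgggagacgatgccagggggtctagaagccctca
Cd22: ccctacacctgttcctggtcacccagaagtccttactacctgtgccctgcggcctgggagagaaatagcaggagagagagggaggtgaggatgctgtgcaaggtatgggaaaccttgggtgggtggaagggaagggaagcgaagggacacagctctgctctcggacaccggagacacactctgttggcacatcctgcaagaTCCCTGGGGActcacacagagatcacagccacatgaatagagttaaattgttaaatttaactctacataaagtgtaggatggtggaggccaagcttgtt
Cd72: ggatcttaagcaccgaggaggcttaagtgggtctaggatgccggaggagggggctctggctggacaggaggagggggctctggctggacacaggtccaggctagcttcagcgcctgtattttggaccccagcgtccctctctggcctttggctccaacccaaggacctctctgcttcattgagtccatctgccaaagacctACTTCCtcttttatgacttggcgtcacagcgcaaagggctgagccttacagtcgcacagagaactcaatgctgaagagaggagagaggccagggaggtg

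The capitals in the *Cd79a* window, which begin 54 bases before the start site, are GGAAGT, a core that ETS factors such as PU.1 bind, and those in the *Cd72* window, from 49 bases before it, are the same core on the other strand. It was in 4 of the 6 windows (*Cd79a*, *Cd72*, *Bank1* and *Pik3ap1*) and in 23.8% of all 32851 windows. The capitals in the *Cd22* window, also from 49 bases before the start site, match the EBF1 motif, searched as TCCC, 2 bases of any kind and GGGA, which reads the same on both strands. It was in 1 of the 6 windows and in 0.904% of all. The octamer ATGCAAAT, bound by OCT factors, was in 0 of the 6 windows and in 1.74% of all. No 2 matches overlapped, and a match describes letters, not binding.

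All 9 genes had a lower mean in *Sucnr1*-/- than in WT mice, as did 46.8% of all genes tested. The log2 differences lay between −1.33 (*Cd79a*) and −0.39 (*Blk*), with a median of −0.82, against a median of 0.01 over all genes. On the linear scale the *Sucnr1*-/- means were 39.7% to 76.6% of the WT means. RNA from whole tissue cannot tell apart fewer B cells, less transcript per B cell and a change in other cells that express the gene. No member passed limma after Benjamini-Hochberg correction across the 18820 genes (adjusted p 0.712 to 0.771), and 0% of all genes were called lower by that rule. At an unadjusted limma p under 0.05, 4 members were lower and none was higher, namely *Cd22*, *Cd72*, *Bank1* and *Pik3ap1*, against 3.36% of all genes called lower. The 9 genes were chosen with earlier results of these data known, and WT replicates 1 and 3 were the highest pair for each. The counts over the 9 are therefore a description and not independent support. The methods' t-test, stated there for comparisons of 2 groups in general and not known to have been used on the arrays, gave 1 member, *Cd72*, against 2.98% of all genes called lower, and 1247 genes in both directions unadjusted, with 0 after adjustment. For 0 members did the 4 *Sucnr1*-/- mice all lie below the 4 WT mice, which 1.87% of all genes showed. The range of the 4 WT mice was wider than the difference between genotypes for all 9 genes, and that of the 4 *Sucnr1*-/- mice for 5.

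*Cd79a* and *Cd79b*, the signalling chains, had large differences and large spreads. *Cd79a* was at 7.70, 5.59, 6.05 and 7.49 in *Sucnr1*-/- mice 1 to 4, against 9.50, 7.18, 8.59 and 6.88 in WT mice 1 to 4. *Sucnr1*-/- mice 1 and 4 lay above WT mice 2 and 4, and *Sucnr1*-/- mice 2 and 3 lay below every WT mouse. The mean was 6.70 ± 1.04 in *Sucnr1*-/- and 8.04 ± 1.23 in WT mice (SD, n = 4 each), a log2 difference of −1.33 (SE 0.67, 95% interval −2.86 to 0.20; exact permutation p = 0.171). *Cd79b* was at 8.58, 6.77, 7.03 and 8.73 in the *Sucnr1*-/- mice and at 10.01, 7.95, 9.17 and 7.82 in the WT mice. The order of the mice was that of *Cd79a* except that *Sucnr1*-/- mice 1 and 4 changed places, and the log2 difference was −0.96 (SE 0.61, 95% interval −2.35 to 0.42; exact permutation p = 0.229). *Ms4a1*, which encodes CD20, a membrane protein of mature B cells, was at 8.05, 5.57, 6.47 and 7.59 in *Sucnr1*-/- mice, against 10.02, 6.97, 8.25 and 6.46 in WT mice. WT replicate 1 stood highest and *Sucnr1*-/- replicate 2 lowest. The *Ms4a1* difference of −1.01 (SE 0.81, 95% interval −2.85 to 0.84; exact permutation p = 0.371) had the widest interval of the 9, and it was −0.31 without WT replicate 1.

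**Figure D1:**
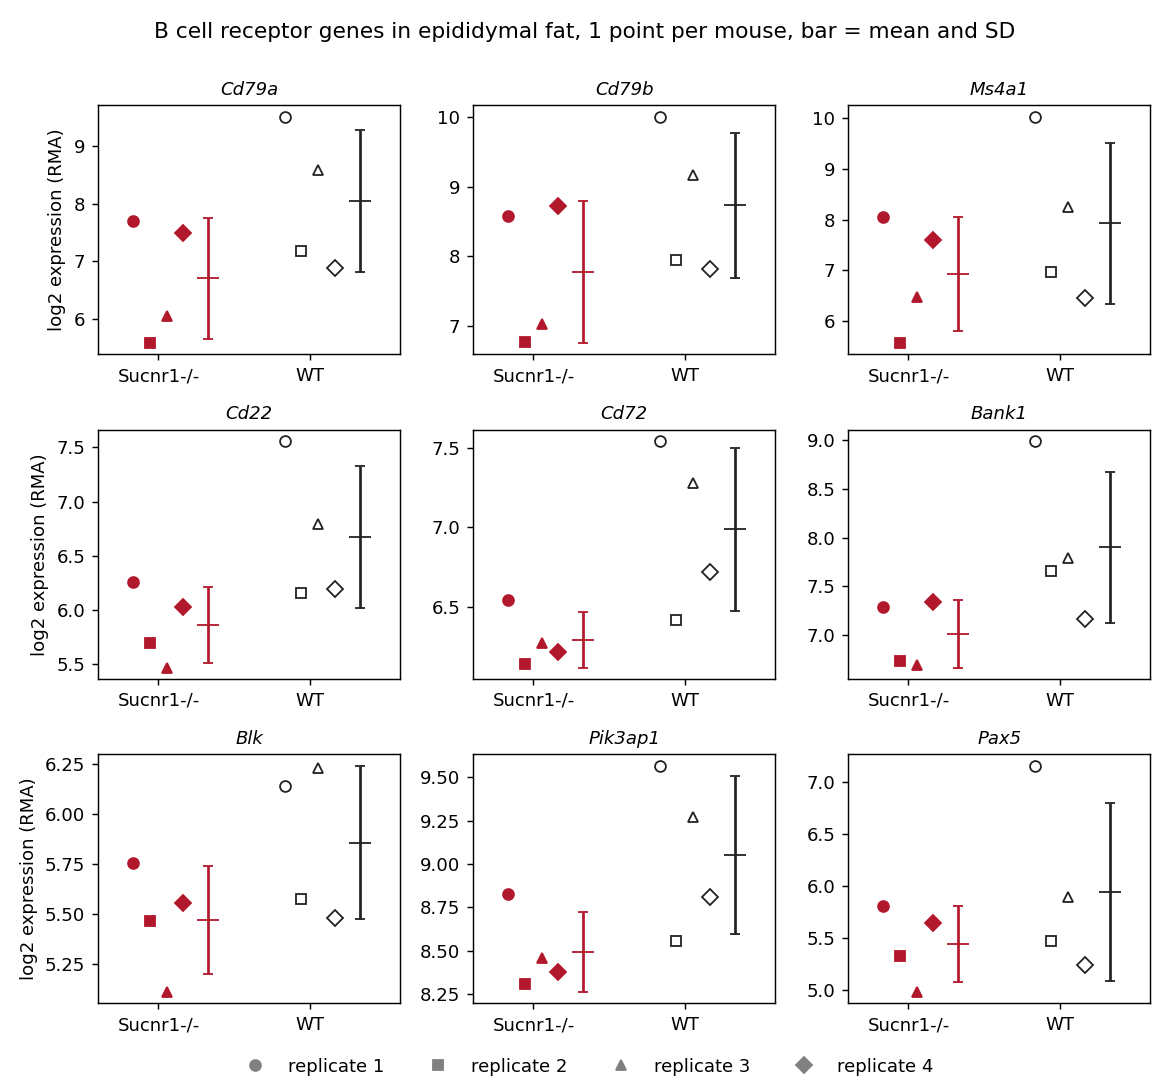
Log2 expression (RMA, vertical axes, scaled per gene) of the 9 genes, with 1 point per mouse, *Sucnr1*-/- as filled and WT as open symbols whose shape gives the replicate, and bars for the mean and SD (n = 4). The groups overlap for every gene, and WT mice 1 and 3 are the highest pair in all 9 panels.

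The inhibitory receptors had smaller differences than the signalling chains and narrower spreads. *Cd22* was at 6.26, 5.69, 5.47 and 6.03 in *Sucnr1*-/- mice and at 7.56, 6.16, 6.79 and 6.20 in WT mice. A single *Sucnr1*-/- mouse, replicate 1, lay within the WT range. The means of 5.86 ± 0.35 in *Sucnr1*-/- and 6.68 ± 0.66 in WT mice (SD, n = 4 each) differed by −0.82 (SE 0.31, 95% interval −1.53 to −0.10; exact permutation p = 0.0857). *Cd72* was at 6.55, 6.14, 6.27 and 6.22 in *Sucnr1*-/- mice, against 7.54, 6.42, 7.28 and 6.72 in WT mice, and here too replicate 1 was the only *Sucnr1*-/- mouse within the WT range. Its means were 6.29 ± 0.18 in *Sucnr1*-/- and 6.99 ± 0.51 in WT mice (SD, n = 4 each), a difference of −0.70 (SE 0.23, 95% interval −1.22 to −0.17; exact permutation p = 0.0571). With 4 mice against 4 the smallest p this two-sided test can give is 0.0286. *Cd72* had the smallest unadjusted p of the 9, under 0.05 in each of the 18 alternatives run.

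Among the proteins that act inside the cell, *Bank1*, a B cell scaffold with ankyrin repeats, was at 7.29, 6.73, 6.70 and 7.34 in *Sucnr1*-/- mice and at 8.99, 7.65, 7.80 and 7.16 in WT mice. WT replicate 1 lay over 1 log2 unit above every other mouse, *Sucnr1*-/- replicates 1 and 4 overlapped the WT range, and the difference was −0.89 (SE 0.36, 95% interval −1.70 to −0.07; exact permutation p = 0.0857). *Pik3ap1*, the adaptor BCAP that links the receptor to phosphoinositide 3-kinase, was at 8.82, 8.31, 8.46 and 8.38 in *Sucnr1*-/- mice, against 9.57, 8.56, 9.27 and 8.81 in WT mice. Only *Sucnr1*-/- replicate 1 reached the WT range, and the difference was −0.56 (SE 0.22, 95% interval −1.06 to −0.06; exact permutation p = 0.0857). *Blk*, a kinase of the Src family, was at 5.76, 5.47, 5.11 and 5.55 in *Sucnr1*-/- mice and at 6.14, 5.58, 6.23 and 5.48 in WT mice. WT replicate 3 was the highest mouse here, and the difference of −0.39 (SE 0.20, 95% interval −0.84 to 0.07; exact permutation p = 0.171) was the smallest of the 9. *Blk* (mean 5.66 over all mice) and *Pax5* (5.69) were also the dimmest of the 9, and RMA compresses differences between dim genes. *Pax5*, the transcription factor that commits cells to the B lineage, was at 5.81, 5.33, 4.98 and 5.65 in *Sucnr1*-/- mice, against 7.15, 5.48, 5.89 and 5.24 in WT mice. WT replicate 1 lay over 1 log2 unit above every other mouse for *Pax5*, whose difference of −0.50 (SE 0.39, 95% interval −1.38 to 0.39; exact permutation p = 0.4) was −0.09 without that mouse.

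**Figure D2:**
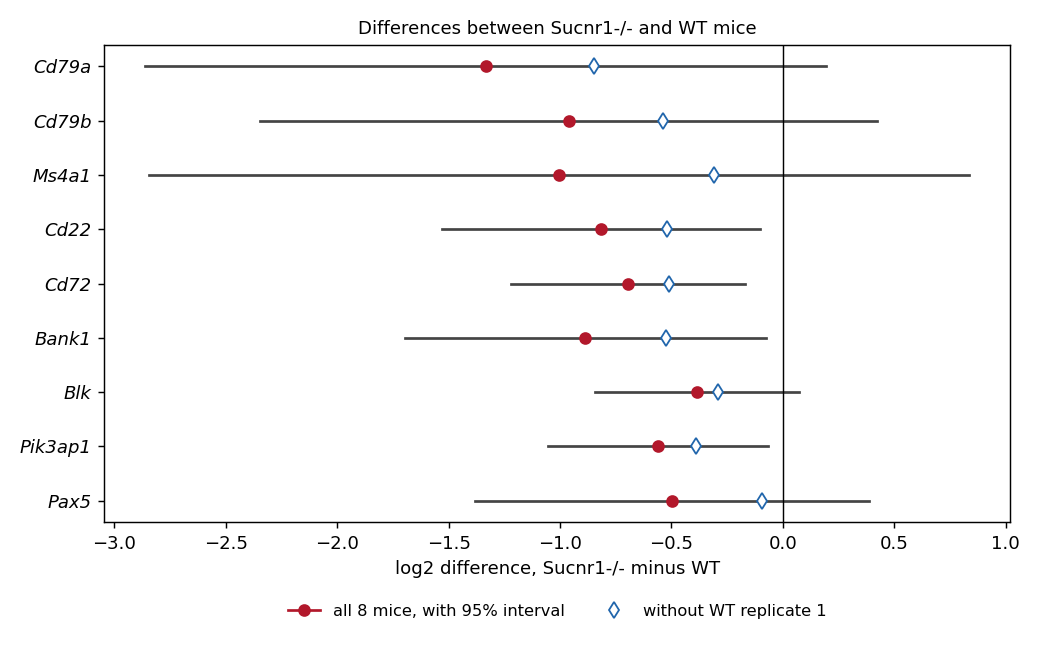
Log2 difference, *Sucnr1*-/- minus WT (horizontal axis), of the 9 genes (rows), as red circles with 95% intervals from limma over all 8 mice and as blue diamonds without WT replicate 1. All diamonds lie below 0 and nearer to it than the circles, and 4 of the 9 intervals lie wholly below 0.

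Several of the same mice were high and low for all 9 genes. WT replicate 1 was the highest of the 8 mice for 8 of them, the exception being *Blk*, and WT replicates 1 and 3 lay above every *Sucnr1*-/- mouse for all 9. *Sucnr1*-/- replicates 2 and 3 were the lowest pair for 5 genes and among the 3 lowest mice for all 9, and *Sucnr1*-/- replicate 1 lay above WT replicates 2 and 4 for 7. The place of *Sucnr1*-/- replicate 4 changed between genes. It lay below *Sucnr1*-/- replicate 3 for *Cd72* and *Pik3ap1*, but above WT replicates 2 and 4 for *Cd79a*, *Cd79b*, *Ms4a1* and *Pax5*. Averaged over the 9 genes and set against the mean of the 8 mice, *Sucnr1*-/- mice 1 to 4 lay at 0.14, −0.88, −0.78 and −0.06 and WT mice 1 to 4 at 1.44, −0.18, 0.64 and −0.31. The residual SD within genotypes, 0.33 (*Blk*) to 1.37 (*Ms4a1*), exceeded that of 91.8% to 99.7% of all genes. Without WT replicate 1 all 9 means were still lower in *Sucnr1*-/- mice, with a median of −0.51 and 3 genes (*Cd22*, *Cd72* and *Bank1*) at an unadjusted limma p under 0.05, against 2.75% of all genes. In that comparison *Cd79a* differed by −0.85, *Cd79b* by −0.54, *Cd22* by −0.52 and *Bank1* by −0.52. Without *Sucnr1*-/- replicate 1 the groups did not overlap for 3 members, *Cd22*, *Cd72* and *Pik3ap1*, against 5.13% of all genes. That follows from the values above, where it was the only *Sucnr1*-/- mouse within the WT range, and is no separate support. Leaving out any other single mouse gave 0 or 1 such member, against 2.62% to 3.71% of all genes.

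Other genes of the pathway mostly had lower means too, where over all genes 46.8% did with a median of 0.01. Of 23 measured genes of the co-receptor and of proximal receptor signalling 20 were lower on average (median −0.29), 7 of them at an unadjusted limma p under 0.05, against 3.36% of all genes. The 4 of smallest p were *Lat2*, an adaptor, at −0.63 (SE 0.19), *Vav3*, a guanine nucleotide exchange factor, at −0.27 (SE 0.09), *Was*, a regulator of actin, at −0.42 (SE 0.14), and the GTPase *Rac2* at −0.65 (SE 0.26). For *Lat2* and *Vav3* all 4 *Sucnr1*-/- mice lay below all 4 WT mice, as for 1.87% of all genes. These genes are also used by other leucocytes. Of 20 other inhibitory receptors and phosphatases 18 had a lower mean (median −0.23), with 1 at an unadjusted p under 0.05, the collagen receptor *Lair1* at −0.38 (SE 0.15). *Ptpn6*, which encodes the SHP-1 that CD22 and CD72 recruit, was at −0.39 (SE 0.22), *Pirb*, an inhibitory receptor for MHC class I, at −0.35 (SE 0.17) and *Csk*, a kinase that restrains Src kinases, at −0.23 (SE 0.13). Of 17 other transcription factors of the B lineage 15 had a lower mean (median −0.21), with differences from −0.90 to 0.45. *Spi1*, which encodes PU.1 and also acts in macrophages, was the only factor at an unadjusted p under 0.05, at −0.38 (SE 0.16). *Ikzf1* was at −0.51 (SE 0.24), *Spib* at −0.63 (SE 0.36) and *Bcl11a* at −0.30 (SE 0.19). The 1 of 20 and the 1 of 17 at an unadjusted p under 0.05 lie near the 3.36% of all genes. Without WT replicate 1 the medians were −0.18 for the co-receptor and proximal signalling genes, −0.10 for the inhibitory receptors and phosphatases and −0.10 for the transcription factors, and *Spib* differed by −0.29, *Ikzf1* by −0.28, *Bcl11a* by −0.12, *Ptpn6* by −0.24, *Pirb* by −0.21 and *Csk* by −0.10.

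Of 13 measured ligands and survival factors of B cells 12 had a lower mean, with a median of −0.13 and 0 at an unadjusted limma p under 0.05, against 46.8%, 0.01 and 3.36% over all genes. *Sema4d*, the ligand of CD72, was at 8.09, 7.00, 7.11 and 7.33 in *Sucnr1*-/- mice and at 8.32, 7.52, 8.11 and 7.37 in WT mice, overlapping, with a difference of −0.45 (SE 0.28). *Cxcl13*, the chemokine that draws B cells into lymphoid clusters, was at 11.35, 7.10, 10.37 and 10.31 in *Sucnr1*-/- mice, against 11.85, 10.72, 10.22 and 10.06 in WT mice. *Sucnr1*-/- replicate 2 lay far below all other mice for *Cxcl13*, while *Sucnr1*-/- replicates 1, 3 and 4 lay within the WT range. The *Cxcl13* difference was −0.93 (SE 0.84). The chemokine *Cxcl12* was at −0.14 (SE 0.14) and the cytokine *Il5*, dim at a WT mean of 4.58, at −0.28 (SE 0.30). Without WT replicate 1 the median of the list was −0.06, and the differences were −0.29 for *Sema4d*, −0.55 for *Cxcl13*, −0.06 for *Cxcl12* and 0.01 for *Il5*. The −0.55 for *Cxcl13* still includes the low *Sucnr1*-/- replicate 2. None of the genes in these pathway groups passed limma after adjustment.

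The antibody chains form the antigen-binding part of the receptor. Of 6 measured genes, the *Sucnr1*-/- mean was below the WT mean for the 2 antibody chains and above it for the 4 listed surrogate chains. The median was 0.03, against 0.01 over all genes, with 0 genes at an unadjusted limma p under 0.05. The surrogate chains were dim, with WT means of 4.42 to 5.89, against 8.26 and 8.46 for the antibody chains. *Ighm*, the μ heavy chain, named here after its values were seen, was at 10.64, 7.36, 7.01 and 7.44 in *Sucnr1*-/- mice and at 10.65, 7.27, 8.10 and 7.01 in WT mice. Replicate 1 stood high in both genotypes. *Igkc*, the κ light chain, was at 10.23, 6.92, 7.83 and 7.50 in *Sucnr1*-/- mice, against 10.80, 7.63, 8.99 and 6.41 in WT mice. *Jchain*, which joins secreted antibodies and was also singled out after its values were seen, was at 10.44, 7.81, 7.68 and 7.95 in *Sucnr1*-/- mice and at 11.00, 7.63, 8.48 and 7.49 in WT mice. *Mzb1*, a chaperone of antibody secretion singled out in the same way, was at 7.26, 5.35, 5.42 and 5.53 in *Sucnr1*-/- mice, against 8.21, 5.74, 6.17 and 5.49 in WT mice. For these 4 genes replicate 1 was the highest mouse of each genotype, as it was for 6 of the 9 receptor genes. WT replicate 1 lay 0.01 (*Ighm*) to 0.95 (*Mzb1*) above *Sucnr1*-/- replicate 1 for the 4 antibody genes and 0.38 (*Blk*) to 1.97 (*Ms4a1*) above it for the 9, ranges that overlap. *Sucnr1*-/- replicate 1 lay above WT replicate 3 for each of the 4, whereas it lay below WT replicate 3 for all 9. The log2 differences were −0.14 (SE 0.99) for *Ighm*, −0.34 (SE 0.99) for *Igkc*, −0.18 (SE 0.87) for *Jchain* and −0.51 (SE 0.64) for *Mzb1*, and without WT replicate 1 they were 0.65, 0.44, 0.60 and 0.09. *Igll1*, *Vpreb1* and *Vpreb2*, surrogate light chain genes of precursor B cells, differed by 0.05 (SE 0.08), 0.08 (SE 0.13) and 0.03 (SE 0.09).

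**Figure D3:**
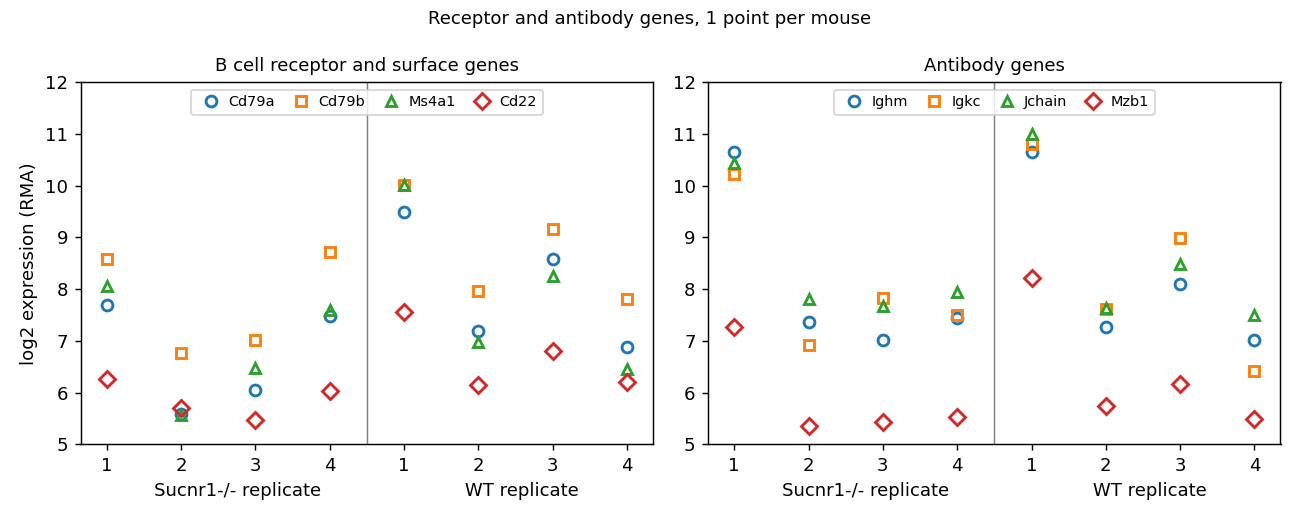
Log2 expression (RMA, vertical axis) of *Cd79a*, *Cd79b*, *Ms4a1* and *Cd22* (left panel) and of 4 antibody genes (right panel) in each mouse, with *Sucnr1*-/- replicates 1 to 4 to the left and WT replicates 1 to 4 to the right of the grey line. In the right panel replicate 1 stands high in both genotypes, whereas in the left panel WT replicate 1 is the highest mouse and *Sucnr1*-/- replicate 1 lies below WT replicate 3.

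The genes whose profile over the 8 mice lay nearest to the mean profile of the 9 were *Spib*, *Fcmr*, *Ikzf3*, *Stat4*, *Napsa*, *Gimap3*, *H2-Ob* and *Fcrla*. The measure was the root mean square distance between log2 values centred on each gene's own mean, which ran from 0.13 for *Spib* to 0.24 for *Fcrla*, against a median of 0.73 over 18811 other genes. *Spib* encodes an ETS factor of B cells, *Fcmr* the receptor for IgM, *Ikzf3* the lymphoid factor AIOLOS and *Fcrla* an Fc receptor-like protein of B cells. *Stat4* (0.21), *Napsa* (0.21), *Gimap3* (0.23) and *H2-Ob* (0.24) are in none of the gene lists used here, though each lay nearer than *Fcrla*. A near profile does not give the cell type that expresses a gene. *Spib* was at 5.46, 4.76, 4.76 and 5.40 in *Sucnr1*-/- mice and at 6.74, 5.26, 5.84 and 5.06 in WT mice, so WT replicates 1 and 3 were highest for it as well. Of the 9 genes themselves *Cd22* lay nearest to their mean profile (0.17) and *Ms4a1* farthest from it (0.63).

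Markers of other cells differed among some of the same mice, and their part in the differences of the 9 genes was not tested. Over all genes 46.8% had a lower mean. Other B cell markers had a lower mean for 12 of 13 genes, with list means of 5.93 to 6.49 in *Sucnr1*-/- and 6.15 to 7.57 in WT mice, the highest WT mouse being replicate 1 and the next at 6.53. This is not a separate set of genes. *Cr2*, *Fcrla*, *Fcrl1*, *Spib*, *Pou2af1* and *Vpreb3* were also counted in the pathway lists above, and *Fcmr* is named above. Plasma cell markers were lower for 9 of 12 genes (7.71 to 8.21 in *Sucnr1*-/- and 7.74 to 8.60 in WT mice) and T cell markers for all 13 measured (5.74 to 6.57 in *Sucnr1*-/- and 5.84 to 6.71 in WT mice). Macrophage markers were lower for 16 of 18 genes (9.85 to 10.15 in *Sucnr1*-/- and 10.13 to 10.54 in WT mice), and macrophages can express both *Cd72* and *Pik3ap1*. At an unadjusted limma p under 0.05, 6 of the 18 were lower and 1 was higher, against 3.36% of all genes called lower. For 4 of the 18 all *Sucnr1*-/- mice lay below all WT mice, against 1.87% of all genes. At that p 1 of the other B cell markers, 2 plasma cell markers and 0 T cell markers were lower. Dendritic cell markers were lower for 8 of 10 genes (6.76 to 7.02 in *Sucnr1*-/- and 6.94 to 7.33 in WT mice) and markers of lymph node stroma and vessels for 5 of 6 (6.35 to 7.24 in *Sucnr1*-/- and 6.99 to 7.52 in WT mice). The 13 immediate early genes, which are induced within minutes of a stimulus, averaged 9.20, 8.23, 8.43 and 8.10 in *Sucnr1*-/- mice 1 to 4 and 9.45, 8.60, 8.38 and 8.71 in WT mice 1 to 4. With their mean as a covariate the differences were −0.56 for *Cd72*, −0.61 for *Cd22*, −0.66 for *Bank1* and −0.41 for *Pik3ap1*, and 1 member, *Cd72*, was lower at an unadjusted limma p under 0.05, against 3.34% of all genes. Adipocyte markers, the check of the tissue, were high in every mouse (12.76 to 12.82 in *Sucnr1*-/- and 12.54 to 12.82 in WT mice), with WT replicate 1 the lowest. Epididymis markers averaged 4.44 to 4.56 in *Sucnr1*-/- and 4.39 to 4.91 in WT mice and 2 erythroid genes of blood 8.02 to 8.66 in *Sucnr1*-/- and 7.90 to 9.09 in WT mice.

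**Figure D4:**
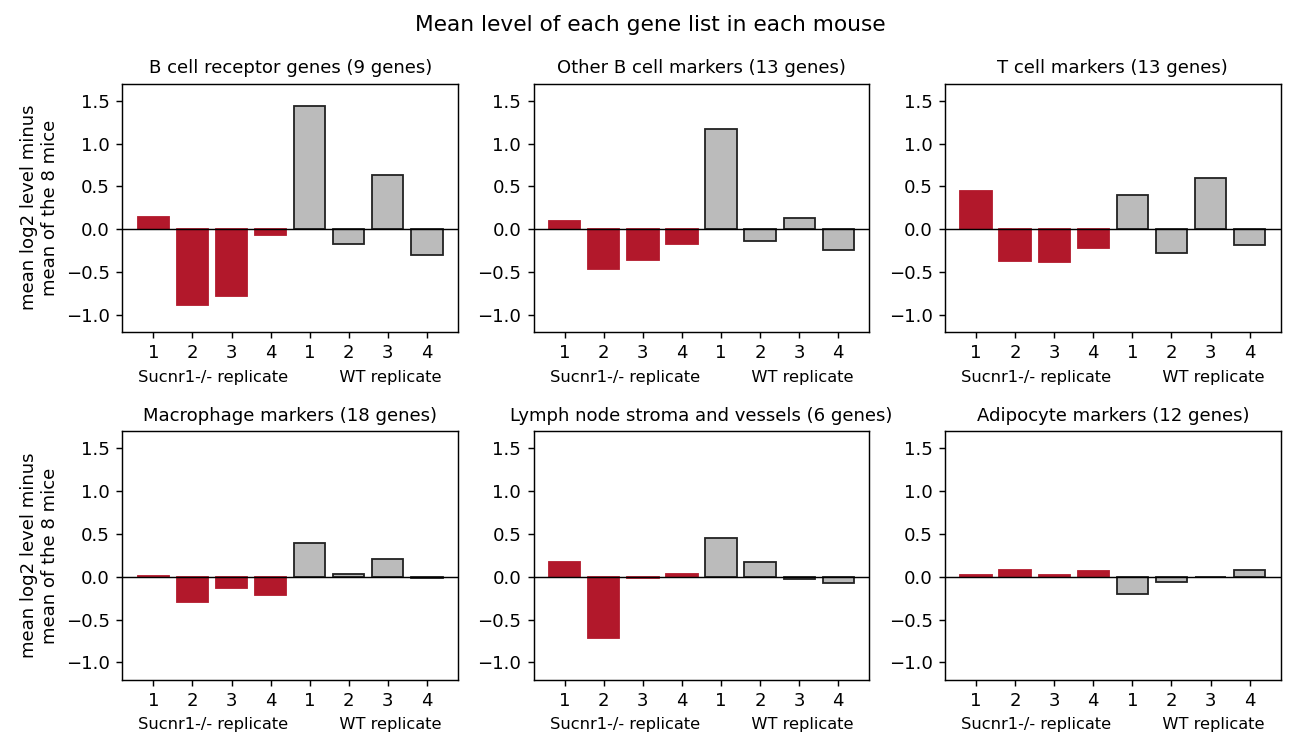
Mean log2 level of the 9 genes and of 5 marker lists in each mouse, minus the mean of the 8 mice (vertical axis), with *Sucnr1*-/- replicates in red on the left and WT replicates in grey on the right of each panel. WT replicate 1 is the highest bar for the 9 genes, the other B cell markers, the macrophage markers and the lymph node list and the lowest for adipocyte markers, whereas WT replicate 3 is highest for T cell markers.

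*Sucnr1* was at 6.02, 6.05, 5.41 and 7.11 in *Sucnr1*-/- mice, against 8.68, 8.97, 9.38 and 9.78 in WT mice. The difference was −3.05 (SE 0.36), with an adjusted limma p of 0.321. Every *Sucnr1*-/- mouse lay below every WT mouse, so the value of each array went with its genotype label. *Sucnr1*-/- replicate 4, at 7.11, was the highest of its genotype. Array medians ran from 6.28 to 6.36 over 35556 probe sets, 0 pairs of arrays held identical values, and the correlation between arrays was 0.981 to 0.993. Precision is limited by there being 4 arrays per genotype, and hybridisation dates were not given in the sources used here, so batches were not examined.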

How the data were processed

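Epididymal adipose tissue RNA of 4 *Sucnr1*-/- and 4 WT mice was hybridised to Affymetrix Mouse Gene ST arrays, 1 per mouse. The deposited values are log2 expression that the authors made with RMA (named in the submitters' processing notes, with no version), which corrects background, normalises between arrays and summarises probes, so differences between dim genes are compressed. A genome build was not given in the sources used here. Of 35556 probe sets, the 21218 annotated to a single gene were used, while 1881 had several symbols and 12457 none. RefSeq (GRCm38.p6) held the Entrez IDs of 21185, with 0 renamed, and the brightest stood for each of the 1386 genes with several probe sets. Dim genes were kept.

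Genotypes were compared with lmFit and eBayes of limma 3.58.1 (R 4.3.3), with 2.66 prior degrees of freedom, Benjamini-Hochberg correction across 18820 genes and a threshold of 0.05. Single genes were also compared by a two-sided exact permutation test over 70 arrangements of the mice. The procedure was tested on simulated data. Figures were drawn with matplotlib 3.10.9.

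The 9 genes and all lists were chosen with earlier results of these data known, so lists are described by counts, medians and levels, with no test. Besides the 9 genes and *Sucnr1*, the text names up to 4 genes per pathway list by smallest unadjusted p and the 8 genes of nearest profile. There were 18 alternatives: 8 left out 1 mouse each, 1 left out both replicates numbered 1, and the others were a prior that follows intensity, the methods' t-test (a stand-in, since the array statistics are in a supplement not used here), removal of the 40% dimmest genes, array weights, median centring, quantile normalisation, replicate numbers as a block, averaged probe sets and immediate early genes as a covariate. Some listed genes were not analysed here.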

Additional observations from a re-analysis of the deposited data

Results flagged for a closer look

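Among 76 sets of 4 values, each of 1 gene in 1 genotype, 6 held a mouse far from the rest of its set, where chance gives about 5%. The sets come from the same 8 mice and are not independent. None was in the 9 genes. *Sucnr1*-/- replicate 1 stood above the others of its genotype for *Was* (6.93, the others 6.69 to 6.72), *Ikzf1* (8.32, the others 7.69 to 7.76) and *Il5* (4.78, the others 4.10 to 4.20). *Sucnr1*-/- replicate 4 stood below the others of its genotype for *Cxcl12* (9.08, the others 9.29 to 9.31). WT replicate 1 stood above the other WT mice for *Vav3* (8.56, the others 8.30 to 8.33) and *Napsa* (8.62, the others 6.97 to 7.24).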

How the results depend on the processing

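The means of the 9 genes were lower in *Sucnr1*-/- mice in all 18 alternatives, *Blk* and *Pax5* being left out with the 40% dimmest genes. No gene passed after adjustment in any of them, and the lowest adjusted p of a member was 0.328. The median of the 9 ran from −0.98 to −0.51. The count of members at an unadjusted p under 0.05, 4 with all mice, was 1 with the methods' t-test (2.98% of all genes), 1 with immediate early genes as a covariate (3.34%) and 1 to 6 when single mice were left out (1.96% to 4.70%). It was 1 without *Sucnr1*-/- replicate 2, without *Sucnr1*-/- replicate 3 or without WT replicate 3. The count of members whose groups did not overlap was 0 to 3 without single mice (2.62% to 5.13% of all genes) and 3 without both replicates numbered 1, where 6.89% of all genes did not overlap. Genes at an unadjusted p under 0.05 numbered 1284 with all mice and 808 to 1659 without single mice, the fewest without *Sucnr1*-/- replicate 2. Of the 1284 genes 632 were lower and 652 higher, but 330 and 1352 after median centring, 465 and 838 after quantile normalisation and 535 and 369 without the dimmest genes. The median of the antibody and surrogate chains was below 0 in 5 of 18 alternatives (−0.24 to 0.14). It was lowest without the 40% dimmest genes, where the dim surrogate chains were left out. With the replicate number as a block, 1905 genes (1096 lower, 809 higher) and 5 members, *Cd79a* added, had an unadjusted p under 0.05. In that setting 5.82% of all genes were called lower. Same-numbered mice deviated together at correlations of 0.01 to 0.45, over 0.1 for 3 of 4 pairs, and not every mouse correlated best with its own number, so the numbers were not taken to pair the mice. The cause of these dependences was not tested.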

Other observations

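Neutrophil markers, 7 genes used in no comparison above, averaged 6.96, 5.08, 5.39 and 5.18 in *Sucnr1*-/- mice 1 to 4, against 6.41, 5.27, 4.95 and 5.63 in WT mice 1 to 4. Replicate 1 was the highest mouse of each genotype, as it was for the mean of the 9 receptor genes and of most other lists. For 6 mesothelial markers, of the cells that cover visceral fat, *Sucnr1*-/- replicate 1 had the lowest mean of all mice, and the means ranged over 8.75 to 10.06 in *Sucnr1*-/- and 9.12 to 9.98 in WT mice. *Cd40*, a receptor through which T cells activate B cells and macrophages, singled out after its values were seen, was at 7.01, 6.57, 6.90 and 6.89 in *Sucnr1*-/- mice and at 7.77, 7.08, 7.05 and 7.09 in WT mice. The groups did not overlap for *Cd40*, which held for this gene alone among the 13 other B cell markers and for 1.87% of all genes. Its difference was −0.41 (SE 0.17), which did not pass limma after adjustment (adjusted p = 0.719).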
